A study of Mus musculus with 27 samples.

Results

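The comparison described here set embryoid bodies labelled Sam68 KO against wild-type embryoid bodies at day 10 of differentiation. Embryoid bodies are aggregates in which embryonic stem cells differentiate in suspension. The members are the libraries whose labels give Sam68 KO or Wild Type at time 10, which are 3 and 3, or 6 of the 27 libraries of the series. Replicate 3 of Sam68 KO carries a mark in its deposited name that its label does not explain, and it was used as labelled. All cells come from E14, a mouse embryonic stem cell line. The series covers 3 lines (wild type, Quaking KO and Sam68 KO) at days 0, 3 and 10 in biological triplicate, and asks what STAR proteins do in early development. No treatment other than the differentiation is labelled, and the labels name no separate clones of a knockout, so that a difference between clones and an effect of the knockout cannot be told apart. Total RNA was depleted of ribosomal RNA and sequenced in pairs with a stranded kit. The Quaking KO libraries of day 10 and the Sam68-labelled and wild-type libraries of days 0 and 3 serve below as comparators.

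STAR proteins bind RNA through a KH domain and regulate splicing, stability and translation of their targets. Sam68, encoded by Khdrbs1, is the best studied of them and is known for its effects on alternative splicing; its closest relatives are SLM1 (Khdrbs2) and SLM2 (Khdrbs3). Embryoid bodies form an outer layer of primitive endoderm with its basement membrane, and inside it mesoderm that can give beating heart muscle, blood islands, vessels and connective tissue.

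The Sam68-labelled libraries held 73510174 to 77257496 counts and the wild-type libraries 66399271 to 71345094. Levels are in CPM, a gene's counts scaled to a common library total. Changes are log2 fold changes, Sam68-labelled minus wild type, with their standard error (±) and the adjusted p of edgeR. Khdrbs1 was still counted in the Sam68-labelled libraries, at 98.9, 101 and 103 CPM. In wild type it stood at 162, 106 and 109.6 CPM, so that the groups did not overlap, but the difference did not pass the test (log2 fold change −0.25 ± 0.13, adjusted p = 0.132). The log2 fold change was −0.03 without wild type replicate 1 (adjusted p = 0.573), and called at −0.35 without wild type replicate 2 (adjusted p = 0.0446). Gene counts would not reveal a deletion of a few bases, so this level does not check the label, and the libraries are called Sam68-labelled throughout. Wild type replicate 1 stood apart from its group, with 1.44% of its counts on mt-Rnr1, the small mitochondrial ribosomal RNA, against 0.385 to 0.411% in the other two. Where a list is said to be led by genes, these had the smallest p.

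The Sam68-labelled libraries carry library numbers of their own series, so a library batch and the label cannot be told apart. Some short noncoding and mitochondrial transcripts were nearly absent from them. The signal recognition particle RNA Rn7s1 stood at 0.218 to 0.354 CPM in these libraries and at 85.8 to 99.5 CPM in wild type. The mitochondrial messenger mt-Atp8 had 1 count over the 3 Sam68-labelled libraries and 625 over the 3 wild-type ones, a ratio of wild type to Sam68-labelled of 680.6 with a 95% exact counting interval of 121.7 to 26920. The mitochondrial genes mt-Nd3, mt-Co3, mt-Co2 and mt-Atp6, with 98.0 to 100% of their windows found in other genes, lay between −5.54 and −4.95, while mt-Nd1 stood at 918 ± 144 against 899 ± 143 CPM (means ± SD, n = 3; log2 fold change 0.10 ± 0.13, adjusted p = 0.533). Among genes with at least 50% of their 50-base windows found in other genes the median log2 fold change was −0.51, and 50% of them were called lower. Among genes with less than 5% shared windows the median was −0.003. The part of sequence sharing in the results was not tested, and what follows rests on the 11604 protein-coding genes tested that have less than 5% shared windows, unless another share is given. Protein-coding genes of that kind number 14847 of 21793. They include mt-Atp8, so this choice does not remove every such loss. Of the 4 mitochondrial messengers of that kind, 1 was called lower and 2 higher. The count called higher was 0 without Sam68 KO day 10 replicate 3 or wild type day 10 replicate 2, and 1 without wild type day 10 replicate 1.

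Of these 11604 genes, 6271 were called at an adjusted p under 0.05 (54%), 3296 higher (28.4%) and 2975 lower (25.6%). Large changes were more often falls: 555 genes were called and at least 2-fold higher (4.78%), and 1083 were called and at least 2-fold lower (9.33%). In 7186 genes (61.9%) the 3 Sam68-labelled libraries and the 3 wild-type libraries did not overlap. The median log2 fold change of all 11604 was 0.01. The list counts below are to be read beside the shares of 28.4% called higher and 25.6% called lower. Without wild type replicate 1 the number called was 7055. On the first principal component of the 2000 most variable genes of day 10, which held 74.1% of the variance, the Sam68-labelled libraries lay between 43.6 and 53.1, the wild-type libraries between −21.9 and −14.8 and the Quaking KO libraries between −35.2 and −26.7. RNA came from whole embryoid bodies, so that fewer cells of a type and less RNA per cell cannot be told apart.

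**Figure D1:**
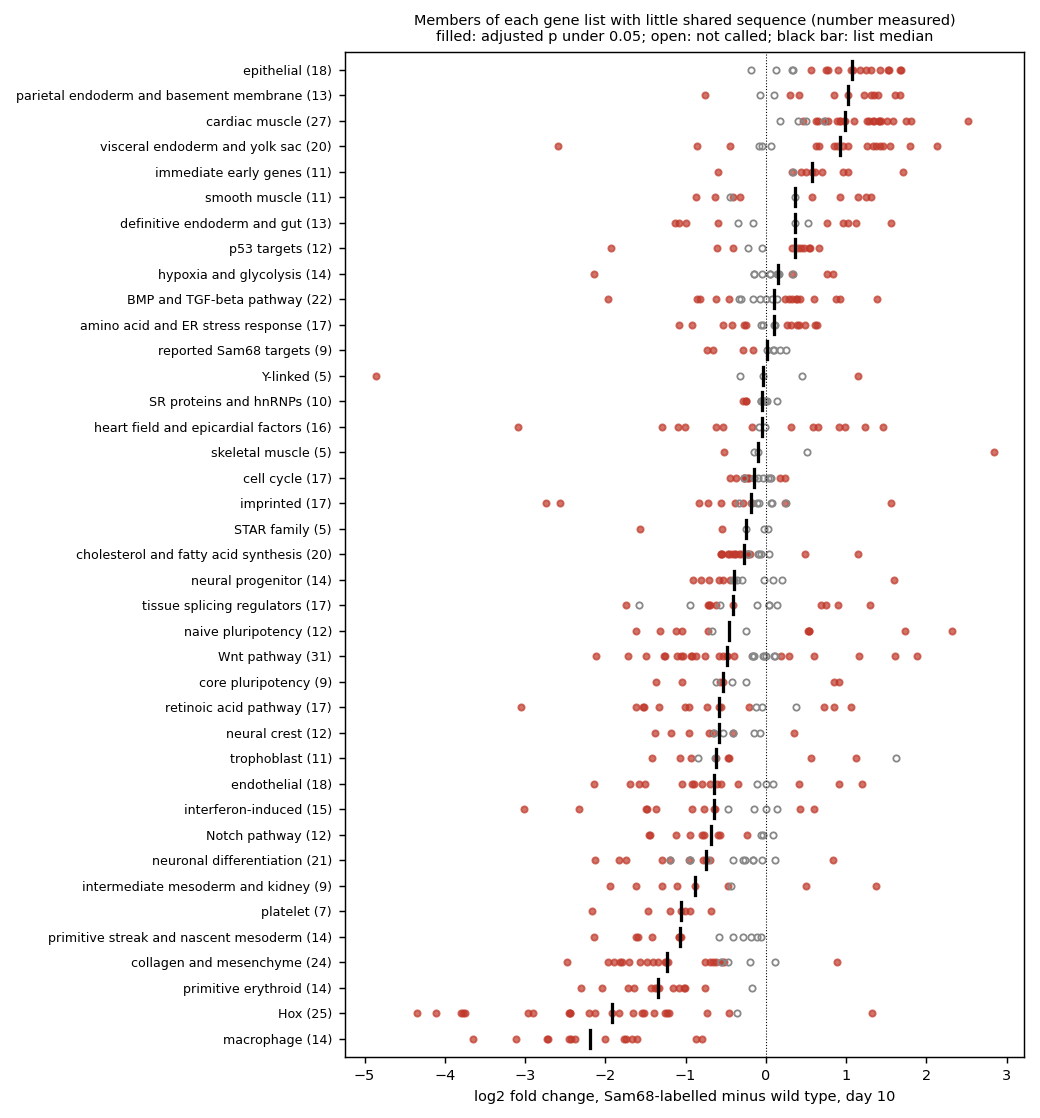
Log2 fold change at day 10 (x axis) of each member of the gene lists with at least 5 members tested (y axis, number tested in parentheses), over genes with less than 5% shared windows. Filled points are called, open points are not, and black bars are medians; the epithelial, basement membrane, cardiac and visceral endoderm lists have the highest medians and the macrophage list the lowest.

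Genes of the heart muscle sarcomere were higher in the Sam68-labelled embryoid bodies. Of the 27 cardiac muscle genes tested 23 were called higher, none was called lower and 4 were not called, with a median log2 fold change of 0.98. Tnnt2, cardiac troponin T of the thin filament, stood at 284, 292 and 277 CPM in the Sam68-labelled libraries. In wild type it stood at 71.6, 92.2 and 104 CPM, so that the lowest Sam68-labelled library lay over 2-fold above the highest wild-type one (1.75 ± 0.18, adjusted p = 1.25e-05). Tnnc1, the calcium-binding troponin C, rose by 1.81 (adjusted p = 9.69e-05), from 28.7, 39.5 and 39.4 CPM in wild type to 121, 130.4 and 108. Mybpc3, myosin-binding protein C of the thick filament, rose by 1.59 (adjusted p = 2.41e-05), and Actc1, cardiac alpha-actin, from 330.3 ± 29.5 to 832 ± 75.3 CPM (mean ± SD, n = 3; 1.41 ± 0.28, adjusted p = 0.0015). The giant elastic protein gene Ttn (1.33 ± 0.24, adjusted p = 0.000871), the Z-disc gene Actn2 (1.41 ± 0.16, adjusted p = 3.66e-05) and the calcium release channel gene Ryr2 (1.34 ± 0.19, adjusted p = 0.000143) rose as well. Atp2a2, the calcium pump of the sarcoplasmic reticulum, rose from 354, 318 and 308 to 571, 608 and 547 CPM (0.89 ± 0.08, adjusted p = 7.63e-06). Nppb, a natriuretic peptide gene of stressed or embryonic heart muscle, was low but did not overlap, at 4.89, 3.31 and 3.37 CPM against 0.693, 0.706 and 0.715 (2.52 ± 0.20, adjusted p = 2.12e-06). Among the 4 members not called were Casq2 (0.40), Tnni3k (0.50) and Myl7 (0.72), whose levels were 325 ± 33.1 against 207 ± 38 CPM. The summed level of the 27 genes ran from 4358 to 4735 CPM in the Sam68-labelled libraries, from 2041 to 2090.5 in wild type and from 856 to 1474 in Quaking KO. Called higher were 20 to 22 of the 27 when any 1 library was left out.

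The 250 bases before the start of 27 of the 32 listed cardiac genes were read from RefSeq (GRCm38.p6) and searched on both strands. A CArG box, the site that serum response factor binds in muscle promoters, was found in 5 of them (18.5%), Actc1, Ldb3, Myl3, Myl7 and Myom1, and in 1.62% of all 27025 genes with a promoter sequence. The box was also in 1 of 13 primitive erythroid promoters (7.69%), 1 of 20 visceral endoderm promoters (5%) and 0 of 10 macrophage promoters. The MEF2 site, which is also rich in A and T, was found in 2 of the 27 (7.41%, against 0.592% of all genes), Mybpc3 and Ttn, neither of which held a CArG box. The parts shown are those around the box for the members that were called higher, on the strand of the gene, 5′ to 3′, with the box in capitals. They lie at chr2:114052877-114052967 (minus strand), chr9:110763548-110763647 (plus), chr14:34588682-34588761 (minus) and chr17:71019413-71019512 (plus).
Actc1: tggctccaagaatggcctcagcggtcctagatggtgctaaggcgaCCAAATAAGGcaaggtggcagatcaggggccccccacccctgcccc
Myl3: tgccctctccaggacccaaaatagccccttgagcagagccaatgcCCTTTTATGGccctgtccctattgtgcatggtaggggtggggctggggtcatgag
Ldb3: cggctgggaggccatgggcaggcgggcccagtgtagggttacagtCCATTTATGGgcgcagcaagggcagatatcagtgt
Myom1: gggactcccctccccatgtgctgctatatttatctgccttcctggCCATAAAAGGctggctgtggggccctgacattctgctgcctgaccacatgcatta
The box ends 38 bases before the start of Actc1, 76 before that of Myl3, 26 before that of Ldb3 and 90 before that of Myom1. The myosin light chain gene Myl3 stood at 76.2, 77.7 and 74.4 CPM against 35.8, 37.4 and 39.4 (1.09 ± 0.25, adjusted p = 0.0037), Ldb3 of the Z-disc at 83.2, 74.6 and 72.8 against 30.9, 27.4 and 27.2 (1.5 ± 0.22, adjusted p = 0.000202) and Myom1 of the M-band at 121, 118 and 117 against 51.2, 52.7 and 51.8 (1.26 ± 0.13, adjusted p = 1.48e-05). A match describes these letters and shows no binding.

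Regulators of heart development did not move as a block. Of 16 heart field and epicardial factors 7 were called higher and 7 lower, with a median of −0.05. Gata4, a zinc finger factor of heart and endoderm, rose from 176, 173 and 160.1 to 434, 464 and 432 CPM (1.46 ± 0.07, adjusted p = 6.43e-08). Popdc2, a membrane protein gene of heart muscle, rose from 22.2, 22.5 and 22.2 to 51.5, 54.4 and 43.6 CPM (1.23 ± 0.14, adjusted p = 3.28e-05), Nkx2-5, an early cardiac factor, by 0.91 (adjusted p = 0.000737) and Tbx20 by 0.58 (adjusted p = 0.000253). Tcf21, a factor of the epicardium and its fibroblasts, stood at 1.03, 1.19 and 0.871 CPM in the Sam68-labelled libraries against 8.25, 8.96 and 10.5 in wild type (−3.09 ± 0.14, adjusted p = 8.08e-08). The epicardial factor Wt1 fell from 30.8 ± 4.24 to 11.9 ± 2.11 CPM (−1.29 ± 0.21, adjusted p = 0.000353), and Isl1, which marks second heart field progenitors, from 26.8 ± 1.98 to 12.7 ± 2.15 (−1.01 ± 0.11, adjusted p = 2.08e-05). Gata6 (−0.09 ± 0.08, adjusted p = 0.423) and Tbx2 (0.00 ± 0.06, adjusted p = 0.958) were not called. Of 11 smooth muscle genes 5 were called higher, among them the actin gene Acta2 (412, 413 and 327 against 128, 179.8 and 181 CPM; 1.31 ± 0.15, adjusted p = 3.69e-05) and the intermediate filament gene Des (0.57), and 4 lower, among them Mylk (−0.88) and Cald1 (−0.64). Acta1, the skeletal alpha-actin that embryonic heart also uses, was among the largest rises of all genes, at 26.5, 23.9 and 17.1 CPM against 2.85, 4.02 and 3.06 (2.84 ± 0.22, adjusted p = 1.7e-06). Of the 5 skeletal muscle genes tested it was the one called higher, with a list median of −0.10. The one called lower, Tnnt3, lost its call when any one of the 6 libraries other than wild type replicate 1 was left out (adjusted p from 0.0538 to 0.0952). The tissue splicing regulators described below did not move as a block either. Of 17 tested, 4 were called higher and 6 lower, with a median of −0.41. Among the 4 were 2 that act in heart muscle. Rbm24 rose from 20.1, 21.6 and 22 to 53.7, 48.8 and 47 CPM (1.30 ± 0.20, adjusted p = 0.000239). Rbm20, which controls titin splicing, rose from 17.1, 16.4 and 13.3 to 30.4, 26 and 27 (0.90 ± 0.14, adjusted p = 0.000275).

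**Figure D2:**
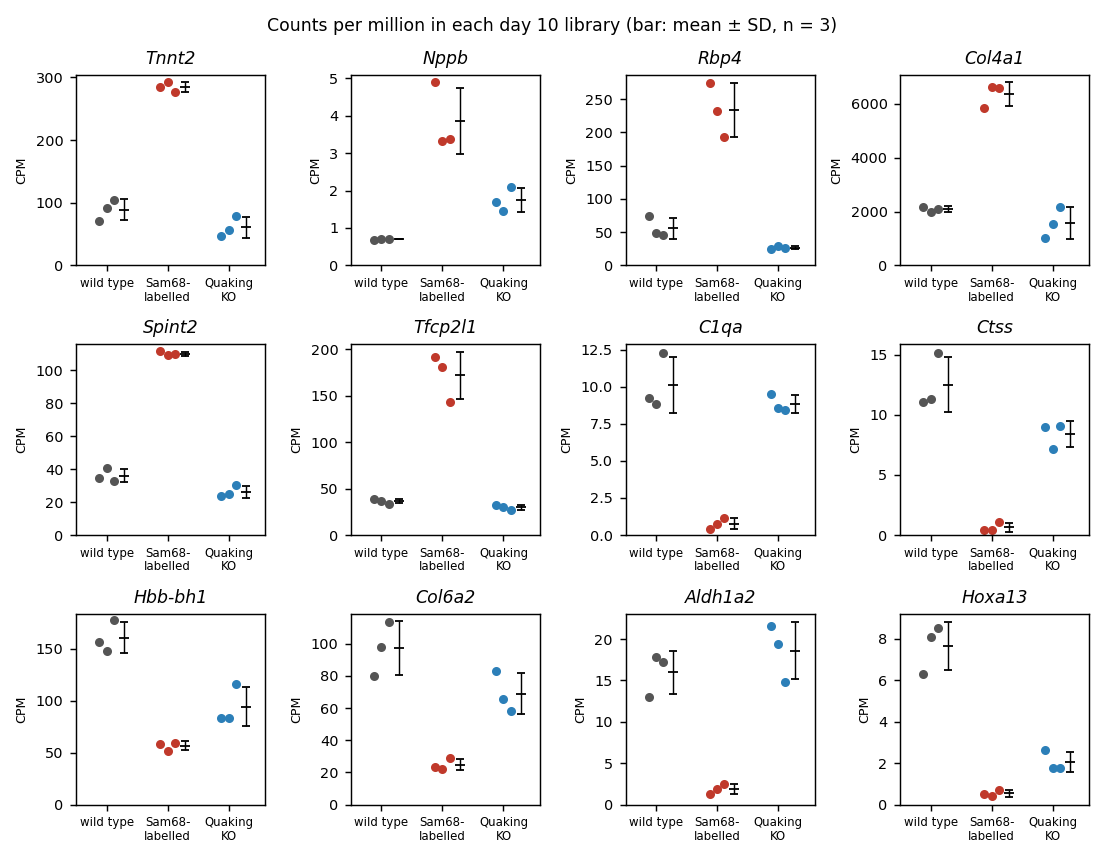
Level in CPM (y axes, linear from 0) of 12 genes in each day 10 library of wild type, Sam68-labelled and Quaking KO (x axes); black bars are mean ± SD, n = 3. In each of the panels the Sam68-labelled libraries lie apart from all 3 wild-type libraries. They lie above them for the first 6 genes (Tnnt2 at 277 to 292 against 71.6 to 104 CPM). They lie below them for the last 6 (C1qa at 0.406 to 1.16 against 8.82 to 12.3 CPM). The 12 genes are a selection made with earlier results known. Of all 11604 protein-coding genes with little shared sequence, 61.9% had no overlap between these groups, so its absence here does not set the 12 apart.

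Primitive endoderm genes and the basement membrane it lays down were higher. Of 20 visceral endoderm and yolk sac genes 14 were called higher and 3 lower, with a median of 0.93. Rbp4, the retinol carrier secreted by yolk sac endoderm, stood at 275, 232 and 193 CPM in the Sam68-labelled libraries and at 73.8, 48.3 and 45.8 in wild type (2.13 ± 0.18, adjusted p = 3.83e-06). The hedgehog ligand gene Ihh, made by visceral endoderm, was at 42.1, 43.8 and 51 against 13.7, 13.8 and 13.9 CPM (1.79 ± 0.11, adjusted p = 3.35e-07). The endoderm factors Hnf4a (115, 114 and 109 against 43.1, 42.4 and 35.6 CPM; 1.55 ± 0.09, adjusted p = 4.3e-07) and Foxa2 (1.02) rose. So did Amn (1.26), the partner of cubilin in the endocytic receptor, the endocytic adaptor gene Dab2 (0.97) and the thyroid hormone carrier gene Ttr (0.85). The lipoprotein gene Apob was not called, at 1584 ± 303 against 1586 ± 333 CPM (0.07 ± 0.16, adjusted p = 0.746). Those called lower were Afp, the fetal serum protein (162, 99.7 and 119 against 254, 233 and 239.7 CPM; −0.86 ± 0.21, adjusted p = 0.00537), the receptor gene Cubn (−0.45 ± 0.15, adjusted p = 0.0309) and the serum protein gene Alb (−2.59 ± 0.89, adjusted p = 0.0307). This count of 3 was 1 when any one of the Sam68-labelled libraries was left out, and the call of Alb was lost without Sam68 KO day 10 replicate 1 (adjusted p = 0.0993), replicate 2 (0.0653) or replicate 3 (0.0633) or wild type day 10 replicate 1 (0.0512) or replicate 3 (0.0761). The summed level of the 20 genes ran from 4005 to 4972 CPM in the Sam68-labelled libraries and from 3048 to 4127 in wild type, so the sums overlapped.

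Of 13 parietal endoderm and basement membrane genes 10 were called higher and 1 lower, with a median of 1.03. Col4a1, a chain of type IV collagen, reached 5865, 6629.9 and 6605 CPM against 2189, 1997 and 2098 (1.68 ± 0.21, adjusted p = 6.84e-05), and its neighbour Col4a2 2272 ± 102 against 786 ± 139.7 (1.60 ± 0.21, adjusted p = 8.3e-05). Laminin chain genes rose, Lamb1 by 1.34 (adjusted p = 3.29e-05), Lama1 by 1.32 (adjusted p = 0.00134) and Lamc1 by 1.03 (adjusted p = 0.000355). Sparc, a matrix protein abundant in parietal endoderm, stood at 2765, 3099 and 3059 CPM against 1155, 1439.6 and 1428 (1.22 ± 0.11, adjusted p = 7.1e-06). Nid1, which joins laminin to collagen (0.10 ± 0.09, adjusted p = 0.42), and the perlecan gene Hspg2 (−0.07 ± 0.14, adjusted p = 0.704) were not called, and Thbd, thrombomodulin, fell from 1.58, 1.71 and 1.82 to 0.917, 0.906 and 1.06 CPM (−0.75 ± 0.18, adjusted p = 0.00501). The 13 genes summed to 15499.7 to 17646 CPM in the Sam68-labelled libraries and to 6683 to 7704 in wild type.

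Epithelial genes rose together with them. Of 18 tested, 14 were called higher and none lower, with a median of 1.08. Ocln, the tight junction protein occludin, stood at 112, 116 and 101 CPM against 35.9, 37 and 35.5 (1.67 ± 0.09, adjusted p = 1.48e-07), and the protease inhibitor gene Spint2 at 111, 109 and 109.6 against 34.7, 40.4 and 32.9 (1.68 ± 0.10, adjusted p = 3.98e-07). The claudin gene Cldn7 was at 70.4, 73.3 and 64.1 against 25.6, 27.9 and 22.4 CPM (1.52 ± 0.11, adjusted p = 1.38e-06), and the keratin gene Krt18 at 824, 753 and 652 against 317, 396 and 329 (1.17 ± 0.11, adjusted p = 1.01e-05). Cdh1, E-cadherin, rose by 1.09 (adjusted p = 0.000265), Epcam by 0.90 (adjusted p = 1.28e-06) and the epithelial splicing regulator Esrp1 by 0.75 (adjusted p = 8.64e-05). Cldn3, Cldn4, Grhl2 and Rab25 were not called (−0.19, 0.32, 0.13 and 0.34). Of 13 definitive endoderm and gut genes 5 were called higher and 4 lower. The gut factors Foxa3 (25.6, 24 and 23.1 against 8.21, 8.96 and 8.82 CPM; 1.56 ± 0.12, adjusted p = 2.46e-06) and Cdx2 (25.6, 24.5 and 23.8 against 11.1, 11.5 and 13.1; 1.12 ± 0.08, adjusted p = 1.54e-06) rose, while the hormone precursor gene Trh (−1.13) and the organiser gene Gsc (−1.08) fell.

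Blood lineages were lower. Every one of the 14 macrophage genes tested was called lower, with a median of −2.19. None of the 14 overlapped between the groups, which also held for 61.9% of all 11604 genes. C1qa, a complement component made by tissue macrophages, stood at 0.406, 0.751 and 1.16 CPM against 9.23, 8.82 and 12.3 (−3.64 ± 0.26, adjusted p = 1.07e-06). Adgre1, the F4/80 antigen, was at 6.1, 7.27 and 9.45 against 37.9, 42.5 and 50.6 CPM (−2.45 ± 0.15, adjusted p = 4.28e-07), and Ptprc, the pan-leukocyte marker CD45, at 2.03, 2.3 and 2.86 against 11.6, 12.8 and 15.1 (−2.38 ± 0.13, adjusted p = 2.44e-07). The lysosomal protease gene Ctss (0.419, 0.44 and 1.05 against 11.1, 11.3 and 15.1 CPM; −4.23 ± 0.27, adjusted p = 5.81e-07) and the sialic acid receptor gene Siglec1 (0.144, 0.142 and 0.231 against 3.09, 2.8 and 3.07; −4.03 ± 0.20, adjusted p = 1.25e-07), which were not on the list, were among the 10 largest falls by the rule given below. The smallest falls on the list were those of Mrc1, the mannose receptor (19, 25.5 and 20.6 against 36.8, 43.6 and 44.8 CPM; −0.87), and Cd68 (−0.79). The 14 genes summed to 70.8 to 90.9 CPM against 279 to 377 in wild type and 368 to 408 in Quaking KO. All 14 were called lower whichever single library was left out.

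Of 14 primitive erythroid genes 13 were called lower, none was called higher and Epor, the erythropoietin receptor, was not called (−0.18 ± 0.09, adjusted p = 0.131), with a median of −1.34. The embryonic globin genes Hbb-y (32.3, 47.6 and 66.9 against 219, 184 and 233 CPM; −2.04 ± 0.21, adjusted p = 1.23e-05), Hbb-bh1 (58.3, 52 and 59.7 against 157, 148 and 178; −1.43 ± 0.12, adjusted p = 3.08e-06) and Hba-x (50.2 ± 14.3 against 173 ± 32.8; −1.71) fell. So did the erythroid factors Gata1 (−1.08 ± 0.20, adjusted p = 0.00109) and Klf1 (−1.02 ± 0.19, adjusted p = 0.00105). All 7 platelet genes tested were called lower, the chemokine gene Ppbp by the most (1.7, 1.81 and 3.47 against 8.86, 10.5 and 13.4 CPM; −2.16 ± 0.24, adjusted p = 2.91e-05), and the integrin gene Itga2b stood at 21.2, 20.6 and 34.1 against 57.1, 47.2 and 62.1 CPM (−1.06 ± 0.17, adjusted p = 0.000336).

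The sequence AGATAA, a form of the site that GATA factors bind, was searched in the same 250-base windows on both strands and found in 5 of 13 erythroid promoters (38.5%), against 11.4% of all 27025 genes and 6 of 27 cardiac ones (22.2%). It is shown here with 3 erythroid members, in capitals, as TTATCT where the site lies on the other strand. The windows are chrX:150547286-150547381 (plus), chr4:134864448-134864535 (plus) and chr4:115056176-115056271 (plus).
Alas2: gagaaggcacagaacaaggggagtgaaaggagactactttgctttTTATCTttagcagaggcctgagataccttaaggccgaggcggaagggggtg
Rhd: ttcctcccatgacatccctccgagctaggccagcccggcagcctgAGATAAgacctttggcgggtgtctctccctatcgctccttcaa
Tal1: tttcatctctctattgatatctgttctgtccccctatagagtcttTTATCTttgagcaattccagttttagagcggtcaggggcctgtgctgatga
Tal1, a factor needed for all blood formation, stood at 8.05, 8.01 and 9.74 CPM against 16.6, 13.9 and 15.5 (−0.76 ± 0.10, adjusted p = 6.13e-05), and the blood group gene Rhd at 0.17, 0.116 and 0.19 against 0.392, 0.254 and 0.617 (−1.33 ± 0.37, adjusted p = 0.0111). Alas2, the erythroid enzyme of haem synthesis, has 11.5% shared windows and was at 4.6, 4.35 and 5.85 against 18.4, 14.9 and 18.1 CPM (−1.72 ± 0.14, adjusted p = 2.66e-06). Of the other motifs searched, GAGGAAGT, a form of the PU.1 site, was found in 1 of 10 macrophage promoters (10%, against 2.79% of all genes). CAAAGTCCA, a form of the HNF4 site, was in none of the 20 visceral endoderm promoters (0.451% of all genes).

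Vessel genes divided. Of 18 endothelial genes 12 were called lower and 3 higher, with a median of −0.65. Kdr, the VEGF receptor 2, stood at 66, 68.6 and 71.8 CPM against 157, 143 and 147 (−1.04 ± 0.06, adjusted p = 2.37e-07), and the sialomucin gene Emcn at 4.3, 3.4 and 4.54 against 13, 15.1 and 13.6 (−1.70 ± 0.12, adjusted p = 1.32e-06). Etv2, the factor that commits mesoderm to blood and endothelium, fell from 1.48 ± 0.162 to 0.317 ± 0.0948 CPM (−2.14 ± 0.24, adjusted p = 2.48e-05). Flt1, the VEGF receptor 1, moved the other way, at 272, 285 and 268 against 144, 120.4 and 112 CPM (1.20 ± 0.11, adjusted p = 6.11e-06), as did Sox7 (0.91 ± 0.19, adjusted p = 0.00184) and Tek (0.42 ± 0.12, adjusted p = 0.0114). Cdh5, VE-cadherin, was not called, at 53.1 ± 2.12 against 56 ± 5.57 CPM (0.00 ± 0.12, adjusted p = 0.989). The summed level of the 18 genes overlapped, at 610.1 to 639.6 CPM in the Sam68-labelled libraries and 603 to 659 in wild type.

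Connective tissue genes were lower as well. Of 24 collagen and mesenchyme genes 19 were called lower and 1 higher, with a median of −1.23. Col6a2, a chain of type VI collagen, stood at 23.6, 22.3 and 28.6 CPM against 80.1, 98.1 and 114 (−1.90 ± 0.15, adjusted p = 2.48e-06). The fibrillar collagen gene Col3a1 was at 1349, 1509 and 2038 against 3640.2, 4270.4 and 5131 CPM (−1.34 ± 0.20, adjusted p = 0.000197), and the proteoglycan gene Dcn at 27, 30.2 and 45 against 97.9, 129.9 and 150.0 (−1.82 ± 0.23, adjusted p = 6.99e-05). Pdgfrb, the receptor of pericytes and fibroblasts, fell by 1.24 (adjusted p = 5.66e-06), while Pdgfra was not called (0.12 ± 0.07, adjusted p = 0.202), nor were Fn1 (−0.47 ± 0.23, adjusted p = 0.107) and Vim (−0.20 ± 0.09, adjusted p = 0.0746). The one gene called higher was Tnc, tenascin C (167, 189.9 and 187 against 123, 89.9 and 97.7 CPM; 0.88 ± 0.12, adjusted p = 9.99e-05), and without Sam68 KO day 10 replicate 1 there were 2 called higher. The 24 genes summed to 5726 to 7531 CPM in the Sam68-labelled libraries and to 11729 to 13997 in wild type.

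Hox genes, which give cells their position along the body axis, were lower in all 4 clusters. Of the 25 with less than 5% shared windows 23 were called lower, Hoxc13 was called higher and Hoxb9 was not called (−0.37 ± 0.31, adjusted p = 0.349), with a median of −1.91. Including members with more shared sequence, 36 were tested, of which 34 were called lower (27.8% of all 20503 genes tested were). Hoxa13, which patterns the distal end of the trunk and limb, stood at 0.511, 0.401 and 0.707 CPM against 6.33, 8.09 and 8.51 (−3.75 ± 0.22, adjusted p = 3.62e-07), and Hoxd13 at 0.432, 0.362 and 0.354 against 3.21, 3.09 and 2.79 (−2.91 ± 0.20, adjusted p = 9.39e-07). Hoxa9 was at 0.21, 0.0647 and 0.34 against 2.64, 2.89 and 3.45 CPM (−3.80 ± 0.38, adjusted p = 1.29e-05). Over all 36, whatever their shared sequence, the median was −1.85 for the 12 members of paralogue groups 1 to 4. It was −1.71 for the 10 of groups 5 to 8 and −3.36 for the 14 of groups 9 to 13. Only 5, 9 and 11 of these members had less than 5% shared windows, so the 3 medians rest partly on genes with more. Groups 9 to 13 also include Hoxc11 and Hoxd12, which had 3 and 4 counts in the Sam68-labelled libraries. Hoxc13 stood at 1.2, 1.06 and 1.33 CPM against 0.437, 0.734 and 0.336 (1.32 ± 0.26, adjusted p = 0.00128). Hoxc11 had 3 counts in the Sam68-labelled libraries and 66 in wild type, a ratio of wild type to Sam68-labelled of 24.0 with a 95% exact counting interval of 7.85 to 119. Levels were low throughout, and the 25 genes together summed to 18.5 to 23.9 CPM against 58.7 to 72.9 in wild type.

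**Figure D3:**
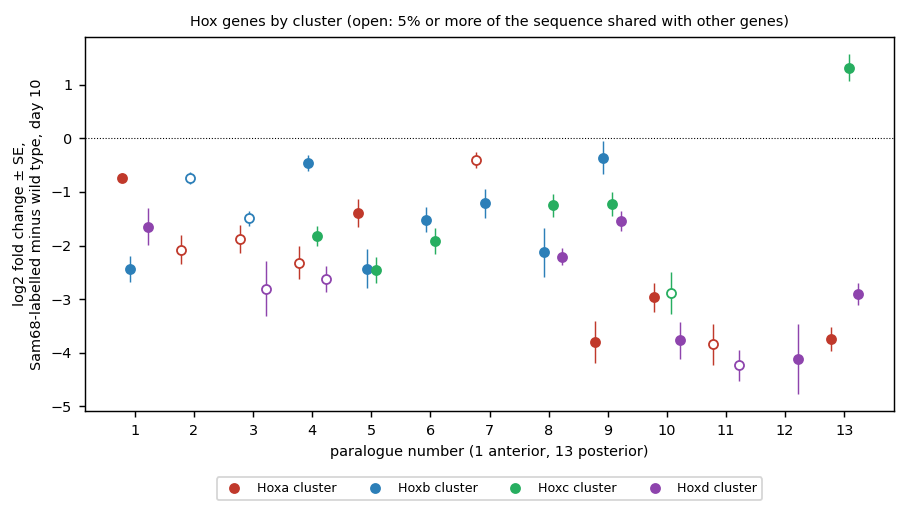
Log2 fold change ± SE at day 10 (y axis) of each Hox gene tested by paralogue number (x axis) and cluster (colour), without Hoxc11, which had 3 counts; open points have 5% or more shared windows. All points but Hoxc13 lie below 0, and the lowest are in groups 9 to 13.

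Retinoic acid is one regulator of Hox genes in the embryo, and most genes of its pathway tested were called. Aldh1a2, the main enzyme that makes retinoic acid in mesoderm, stood at 1.23, 1.84 and 2.46 CPM against 13, 17.8 and 17.2 (−3.05 ± 0.23, adjusted p = 1.59e-06). The receptor gene Rarg was at 12.2, 11.9 and 12.6 against 25.3, 25.6 and 26.4 CPM (−1.0 ± 0.06, adjusted p = 2.92e-07). Rdh10, which makes the precursor retinaldehyde, moved the other way (74.5, 71.5 and 75.1 against 33.2, 41 and 37.6 CPM; 1.06 ± 0.10, adjusted p = 6.5e-06), as did Cyp26a1, which degrades retinoic acid (0.72 ± 0.13, adjusted p = 0.000928). In all, 11 of 17 genes of the pathway were called lower and 3 higher, with a median of −0.58. Of 31 Wnt pathway genes 17 were called lower and 6 higher. Among the ligands, Wnt7b rose from 2.08, 2.88 and 2.64 to 10.1, 8.92 and 7.55 CPM (1.88 ± 0.16, adjusted p = 4.46e-06), and Wnt5b (−1.72) and Wnt3 (−1.05) fell. The Wnt enhancer gene Rspo2 stood at 0.563, 0.44 and 0.721 against 2.33, 3.06 and 2.45 CPM (−2.12 ± 0.20, adjusted p = 7.58e-06). Of the secreted inhibitors, Frzb rose (1.17 ± 0.10, adjusted p = 5.24e-06) and Dkk1 fell (−0.87 ± 0.08, adjusted p = 4.88e-06), and the feedback target Axin2 fell from 31 ± 3.07 to 17.4 ± 3.44 CPM (−0.76 ± 0.15, adjusted p = 0.00121). None of 12 Notch pathway genes was called higher and 9 were called lower, among them the ligand gene Jag1 (−0.94 ± 0.13, adjusted p = 0.000104) and the target Hey2 (−0.79 ± 0.12, adjusted p = 0.000215), while 1 was called higher without wild type day 10 replicate 1. Of 22 BMP and TGF-beta genes 10 were called higher and 5 lower, with the ligand gene Bmp6 (12.5, 13.4 and 12.1 against 5.17, 5.72 and 4.35 CPM; 1.39 ± 0.12, adjusted p = 3.8e-06) and the antagonist gene Grem1 (0.76, 0.647 and 1.17 against 3.36, 3.37 and 3.84; −1.97 ± 0.18, adjusted p = 7.14e-06) at the ends of the list.

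Pluripotency genes moved in both directions. Pou5f1, which has 10.1% shared windows and marks the undifferentiated state, stood at 17.9, 24.6 and 11.9 CPM against 39, 32 and 41.1 (−0.96 ± 0.20, adjusted p = 0.00228), and at day 0 the means of 3 libraries were 764 CPM for Sam68-labelled and 885 for wild type. The label calls all samples embryonic stem cells. Nanog fell to 9.26 ± 2.61 from 20.1 ± 3.13 CPM (−1.04 ± 0.18, adjusted p = 0.000492) and Fgf4 to 0.923 ± 0.427 from 2.99 ± 0.5 (−1.62 ± 0.31, adjusted p = 0.00122). Tfcp2l1 and Klf4, which act in the naive state and later in epithelia, moved the other way, Tfcp2l1 to 191, 181 and 143 CPM from 38.5, 36.7 and 33.8 (2.32 ± 0.11, adjusted p = 1.06e-07) and Klf4 to 49.4, 56.7 and 62.7 from 19.5, 16.1 and 17.6 (1.74 ± 0.14, adjusted p = 3.22e-06). The let-7 antagonist gene Lin28a (0.85 ± 0.10, adjusted p = 3.01e-05) and Trim71 (0.91 ± 0.12, adjusted p = 8.85e-05) also rose. Of 12 naive genes 5 were called higher and 5 lower, and of 9 core genes 2 higher and 4 lower. The summed level of the 12 naive genes was 291 to 332 CPM against 131 to 152 in wild type, and that of the 9 core genes 682 to 793 against 462 to 562, so that both sums were higher in the Sam68-labelled libraries without overlap. The list medians went the other way, at −0.46 for the naive and −0.54 for the core genes. A sum follows its most abundant members, and the naive sum includes Tfcp2l1 and Klf4. Among 14 primitive streak genes 8 were called lower and none higher, with Wnt3 above and Evx1 (−1.08) as those with the smallest p. Among 21 neuronal genes 9 were called lower, with L1cam (−1.29) and Rbfox1 (−1.74) leading, and 1 higher, Chga (0.84). Of 12 neural crest genes 6 were called lower, led by Ets1 (−0.71) and Ngfr (−1.19), and 1 higher, Ednrb (0.35). Of 14 neural progenitor genes 6 were called lower and 1 higher, and these were 3 lower without Sam68 KO day 10 replicate 2 and 2 higher without replicate 1. Of 9 intermediate mesoderm and kidney genes 6 were called lower and 2 higher, with a median of −0.88, among them the kidney factors Osr1 (−0.88 ± 0.12, adjusted p = 0.000155) and Wt1, which fell, and Sall1 (0.50 ± 0.14, adjusted p = 0.00996), which rose. Of 11 trophoblast genes 6 were called lower and 2 higher, against 25.6% and 28.4% of all 11604 genes.

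Among pathways of metabolism and stress, 13 of 20 cholesterol and fatty acid genes were called lower, led by Sqle (−0.56 ± 0.06, adjusted p = 1.57e-05) and Msmo1 (−0.55 ± 0.06, adjusted p = 3.39e-05), and 2 higher, of which Insig1, the brake on that pathway, stood at 280.2, 270.3 and 291 against 123, 151 and 127 CPM (adjusted p = 7.56e-06). The other, Stard4 (0.48 ± 0.17, adjusted p = 0.033), lost its call without Sam68 KO day 10 replicate 1 (adjusted p = 0.0639) or 2 (0.0653) or wild type day 10 replicate 2 (0.0965) or 3 (0.0655). The call was also lost when genes with little shared sequence were fitted alone (0.0525) or only the libraries of the groups compared were used (0.0616). Of 14 hypoxia and glycolysis genes 3 were called higher and 1 lower, and these were 6 higher without wild type day 10 replicate 1 and 2 lower without replicate 3. The hydroxylase gene P4ha1 (0.84 ± 0.11, adjusted p = 0.000101) and the glucose transporter gene Slc2a3 (0.77 ± 0.14, adjusted p = 0.000821) were those with the smallest p. For all these lists, the shares over all 11604 genes were 28.4% called higher and 25.6% called lower. Of 17 genes of the amino acid and ER stress response 7 were called higher, such as Xbp1 (0.64 ± 0.06, adjusted p = 1.26e-05), and 6 lower, such as Vldlr (−0.92 ± 0.08, adjusted p = 4.5e-06). Of 12 p53 targets 7 were called higher, such as Mdm2 (0.66 ± 0.07, adjusted p = 1.68e-05), and 3 lower, such as the death receptor gene Fas (−1.93 ± 0.22, adjusted p = 3.19e-05). Of 11 immediate early genes, which respond within minutes to stimulation, 9 were called higher, such as Fosb (4.28, 4.92 and 5.24 against 1.82, 1.2 and 1.64 CPM; 1.70 ± 0.19, adjusted p = 2.21e-05). The one called lower, Egr2, lost its call without Sam68 KO day 10 replicate 1 or 2 (adjusted p = 0.142 and 0.131) or wild type day 10 replicate 2 or 3 (0.0689 and 0.148). Of 17 cell cycle genes 7 were called lower, 10 without wild type day 10 replicate 1, led by Aurkb (−0.45 ± 0.07, adjusted p = 0.000295). Called higher were 2, Cdt1 and Aurka, and none without Sam68 KO day 10 replicate 1 and 1 without wild type day 10 replicate 3. This count was also 1 with a replicate block and GC and length offsets. Of 15 interferon-induced genes 9 were called lower, with Irf7 at 0.105, 0.155 and 0.0544 against 0.738, 0.889 and 1.09 CPM (−3.01 ± 0.35, adjusted p = 3.56e-05), and 2 higher.

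Of the STAR family, Khdrbs3 stood at 11.3, 11.3 and 11.6 CPM against 15.5, 17.5 and 19.7 (−0.55 ± 0.08, adjusted p = 0.00027) and Khdrbs2 at 0.262, 0.259 and 0.408 against 0.602, 1.1 and 1.19 (−1.57 ± 0.28, adjusted p = 0.000757). Qk, at 270.0, 263 and 286 against 312, 272 and 294 CPM (−0.03 ± 0.06, adjusted p = 0.755), and Sf1 (0.02 ± 0.09, adjusted p = 0.853) were not called, though Sf1 was called without wild type day 10 replicate 1 (0.15, adjusted p = 0.0233). Of 10 SR protein and hnRNP genes 3 were called lower and none higher, with Srsf7 at 166, 158 and 173 against 199.8, 208 and 213 CPM (−0.25 ± 0.05, adjusted p = 0.00279), and 1 was called lower without Sam68 KO day 10 replicate 2 or wild type day 10 replicate 3. Over all 11604 genes 28.4% were called higher and 25.6% lower. Among 17 tissue splicing regulators 4 were called higher, Rbm24, Rbm20, Esrp1 and Mbnl2 (0.68 ± 0.05, adjusted p = 1.97e-06), and 6 lower, with Mbnl1 at 42.4, 43.7 and 50.3 against 77.8, 72.9 and 84.3 CPM (−0.71 ± 0.08, adjusted p = 1.83e-05). Of 9 genes reported as splicing targets of Sam68, none was called higher and 4 were called lower, led by Cd44 (−0.66 ± 0.09, adjusted p = 0.000162). The count of 4 was 1 without Sam68 KO day 10 replicate 1 or 2 or wild type day 10 replicate 3 and 2 without Sam68 KO day 10 replicate 3, and 1 gene was called higher without Sam68 KO day 10 replicate 3 or wild type day 10 replicate 1 or 2. With DESeq2 or with no filter on low counts, 1 gene was called higher as well. The list was drawn up from general knowledge, and levels per gene do not show splice forms.

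Of 17 imprinted genes tested, 8 were called lower and 2 higher, the latter being 1 without Sam68 KO day 10 replicate 1 or wild type day 10 replicate 3. With a replicate block and GC and length offsets, the count called higher was also 1. Plagl1, a zinc finger gene of the imprinted network, stood at 38.6, 42.4 and 54.4 CPM against 352, 265 and 334 (−2.74 ± 0.18, adjusted p = 6.5e-07), and Nnat, neuronatin, at 10.1, 12.2 and 17.2 against 68.7, 85.8 and 92.2 (−2.57 ± 0.17, adjusted p = 8.07e-07). H19, an imprinted noncoding RNA of mesoderm and endoderm, which is not protein-coding, was at 25.9, 31.9 and 28.1 against 207, 239 and 363 CPM (−3.16). Slc22a18 rose (3.81, 3.79 and 3.56 against 1.23, 1.51 and 1.23 CPM; 1.56 ± 0.13, adjusted p = 2.85e-06). Plagl1 was also low in Quaking KO, at 53.2 ± 13.4 CPM (mean ± SD, n = 3), and the contrast of the lines was not called (−0.17 ± 0.17, adjusted p = 0.415).

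The 10 largest rises among called protein-coding genes with little shared sequence, at least 1 CPM on average and no overlap were Slc6a11, Acta1, Ces1g, Nppb, Psca, Spns3, Kcnk16, Elfn1, Tfcp2l1 and Tff3, between 2.31 and 2.97 on the log2 scale. Tff3, a secreted peptide of mucous epithelia (chromosome 17 from 31125306 to 31129646), stood at 32.7, 28.3 and 22.5 CPM against 5.41, 6.03 and 6.32 (2.31 ± 0.20, adjusted p = 4.31e-06). The potassium channel gene Kcnk16 was at 9.06, 8.94 and 9.35 against 1.87, 1.65 and 2.05 CPM (2.37 ± 0.14, adjusted p = 3.45e-07) and the carboxylesterase gene Ces1g at 1.91, 2.05 and 2.04 against 0.181, 0.325 and 0.42 (2.75 ± 0.28, adjusted p = 1.45e-05). Slc6a11, a GABA transporter gene, was at 1.99, 2.77 and 2.14 against 0.497, 0.155 and 0.28 CPM (2.97 ± 0.44, adjusted p = 0.00021). Besides mt-Atp8, the 10 largest falls by the same rule included Fibin, Vstm2a, Tmem26, Ctss, Trpm5, Siglec1, Gabra3 and Hoxa9, between −4.91 and −3.80. Tmem26 (chromosome 10 from 68723646 to 68782650) stood at 0.367, 0.375 and 0.34 CPM against 7.7, 8.36 and 8.73 (−4.44 ± 0.18, adjusted p = 3.52e-08). The secreted factor gene Fibin was at 0.105, 0.0518 and 0.0272 against 1.05, 2.29 and 2.66 CPM (−4.91 ± 0.47, adjusted p = 8.43e-06), Vstm2a at 0.131, 0.129 and 0.204 against 3.13, 4.49 and 5.55 (−4.74 ± 0.35, adjusted p = 1.41e-06), and the cation channel gene Trpm5 at 0.275, 0.207 and 0.218 against 3.99, 4.09 and 4.4 (−4.07 ± 0.26, adjusted p = 5.01e-07). Gabra3, a GABA receptor subunit gene, stood at 0.236, 0.168 and 0.272 against 3.22, 3.77 and 3.31 CPM (−3.85 ± 0.23, adjusted p = 3.62e-07).

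The same genes were set beside the differences at days 0 and 3, which use other libraries. At day 0, 70.9% of 10686 genes with little shared sequence were called (31.5% higher and 39.4% lower), and at day 3 68.3% of 10824 (31% and 37.3%). Of the genes tested on both days, 3832 were called at day 10 and at day 0, of which 2315 differed in the same direction and 1517 in opposite ones. The 2315 are 42.5% of those called at day 10 and 31.4% of those called at day 0. For day 3 the numbers were 3810, 2113 and 1697. The basement membrane list differed early: 12 of its 13 genes were called higher at day 0 (median 1.41) and 12 of 13 at day 3 (0.49). Col4a1 stood at 927 ± 27.1 against 276 ± 15.3 CPM at day 0. The change of its difference from day 0 to day 10 was 0.10 ± 0.09, adjusted p = 0.399. Of 14 visceral endoderm genes tested at day 0, 9 were called higher and 3 lower. Gata4 stood at 72.3 ± 2.8 against 13.3 ± 0.177 CPM then, and its difference shrank by day 10 (−0.82 ± 0.08, adjusted p = 9.34e-07). Of 21 cardiac genes tested at day 0, 8 were called higher and 4 lower. Of 18 epithelial genes 14 were called lower and 1 higher at day 0 (median −0.46), and 11 lower and 6 higher at day 3 (−0.22). At day 10, 14 were called higher, with Ocln changing from day 0 by 2.65 ± 0.11, adjusted p = 6.26e-10. Of 14 streak genes 12 were called lower and 2 higher at day 3, with a median of −2.24. Of 6 macrophage genes tested at day 0, 3 were called lower, and most of the list was below the count filter then.

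Tested as a change of the difference between day 0 and day 10 over 12 libraries, 5998 of 11874 genes were called (50.5%), 3814 with a shift upward (32.1%) and 2184 with one downward (18.4%). The split depended on the scaling: upward shifts were 63.6% of those called here, 44.9% when the counts were scaled on genes with little shared sequence alone and 70.2% with all 18 libraries of both lines. Acta1 shifted by 4.58 ± 0.29, adjusted p = 2.42e-08, from 0.631 ± 0.146 against 1.89 ± 0.0686 CPM at day 0, and Tfcp2l1 by 2.20 ± 0.12, adjusted p = 6.19e-09. Vstm2a (−4.32 ± 0.42, adjusted p = 1.39e-06) and Trpm5 (−4.63 ± 0.33, adjusted p = 7.15e-08) shifted down. These genes were picked from the largest differences of day 10, a choice that favours large shifts.

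**Figure D4:**
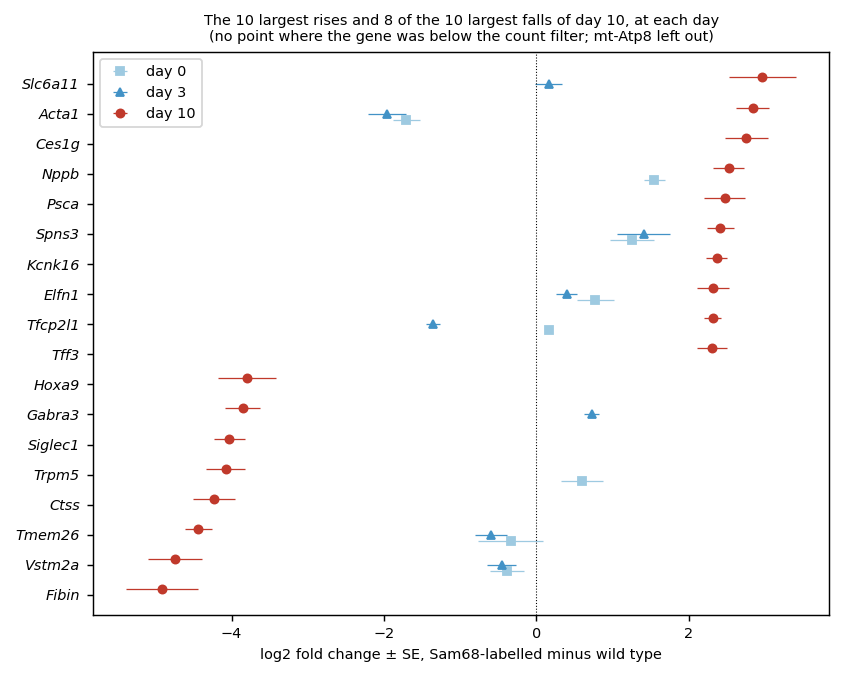
Log2 fold change ± SE (x axis) of the 10 largest rises and 8 of the 10 largest falls of day 10 (y axis) at days 0, 3 and 10, with no point where a gene was below the count filter and without mt-Atp8, which had 1 count. Acta1 lies below 0 at days 0 and 3 (−1.70 and −1.96) and at 2.84 at day 10, and none of the falls shown lies below −1 at day 0 or day 3.

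Set directly against the Quaking KO libraries of day 10, 60.6% of the 11604 genes were called, 31.4% higher and 29.1% lower in the Sam68-labelled ones. In this contrast the wild-type libraries entered only the count filter, the scaling and the estimate of the spread. Of the cardiac muscle genes 26 of 27 were called higher, with a median of 2.24, and Tnnt2 was at 60.7 ± 16.7 CPM in Quaking KO (mean ± SD, n = 3; 2.29 ± 0.18, adjusted p = 1.43e-06). All 14 macrophage genes were called lower (median −2.55), with C1qa at 8.83 ± 0.585 CPM in Quaking KO. Visceral endoderm genes were called higher in 16 of 20, epithelial genes in 14 of 18 with 1 lower, and basement membrane genes in 10 of 13 with 1 lower. Hox genes were called lower in 17 of 25 and higher in 1, with a median of −1.33, and Hoxa13 was at 2.06 ± 0.487 CPM in Quaking KO (−1.87 ± 0.23, adjusted p = 4.38e-05). Hypoxia and glycolysis genes, of which 3 of 14 were called higher against wild type, were called higher in 13 of 14 against Quaking KO. Both contrasts share the Sam68-labelled libraries, so they are not independent of each other.

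By chromosome, the medians farthest from 0 were those of 14, 8 and 6. The median log2 fold change was 0.20 over 389 genes of chromosome 14 (172 called higher and 62 lower), 0.14 over 619 genes of chromosome 8 (253 and 114) and −0.11 over 598 genes of chromosome 6 (109 and 207). The other autosomes and chromosome X lay between −0.07 and 0.05. Chromosome 14 stood at 0.15 at day 0 and 0.06 at day 3, chromosome 6 at −0.26 and −0.14, and chromosome 8 at −0.07 and 0.01. Of the 5 Y-linked genes tested, Eif2s3y rose from 63.7, 65.3 and 63.8 to 139.7, 139 and 129 CPM (1.15 ± 0.08, adjusted p = 6.5e-07), Uty was not called (−0.04 ± 0.10, adjusted p = 0.788), and Kdm5d had 2 counts against 67, a ratio of wild type to Sam68-labelled of 36.5 with a 95% exact counting interval of 9.71 to 307. The count called higher among the Y-linked genes, 1, was 2 without Sam68 KO day 10 replicate 3, and that called lower, 1, was 2 without wild type day 10 replicate 1. Both counts were 2 with no filter on low counts, and that called lower was 2 with only the libraries of the groups compared. Copy number was not tested.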

How the data were processed

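The authors deposited 1 table of read counts per gene for each library, as whole numbers that are not normalized. Per the submitters' processing notes, bcl2fastq 2.17.1.14 and STAR 2.5.3a were used with GRCm38 (mm10). The counter, its strand setting and the release of the annotation are not given in the labels or files used here. Gene identifiers were named from GENCODE mouse release 21, which matched 51633 of 51826 (99.6%). Genes were kept by filterByExpr (minimum count 10, minimum total 15), scaled by TMM and tested with edgeR 4.0.16 (glmQLFit, glmQLFTest; R 4.3.3, limma 3.58.1), with Benjamini-Hochberg adjustment over all genes tested and a gene called where that value was under 0.05. Fits for one day used its 9 libraries, and the change from day 0 with 12. CPM are counts divided by the library's total, with no pseudocount. Shared windows are stretches of 50 bases also found in another gene. The median gene with little shared sequence had 1514 counts in a library (median over the 6 compared), and the common coefficient of biological variation of day 10 was 10.6%; intervals cover counting error only. The method was tested on simulated data in which few genes changed. That test does not speak to scaling or error rates where 54% of genes were called.

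Genes were named by rule: the STAR family, the 10 largest called rises and falls averaging 1 CPM or more without overlap of the groups, and up to 2 called members in each direction from each of 43 lists by smallest p, with defining markers; other list members were named after their values were seen. Some genes that the rule names are not reported here. The members and lists were chosen with earlier results of these data known. Alternatives were DESeq2 1.42.0, other scaling, no filter, other sets of libraries in the fit, a replicate block, GC and length offsets and leaving out each library. Promoter sequences are RefSeq's (GRCm38.p6), and 70 of 92 members searched had one. The labels name separate biological replicates without saying whether they were separate differentiations.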

Additional observations from a re-analysis of the deposited data

Results flagged for a closer look

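The difference between Sam68-labelled and wild type changed between day 0 and day 10 in 12 of the leading genes, by edgeR's test of the interaction of line and day. These genes were picked for their large differences at day 10, and the test reuses the day 10 libraries. Large shifts are expected from that choice and are no separate support. Of all 11874 genes with little shared sequence tested this way, 50.5% were called. On the log2 scale the difference rose by 5.51 for Slc6a11, 4.58 for Acta1, 2.20 for Tfcp2l1, 1.59 for Elfn1, 1.20 for Spns3 and 1.02 for Nppb. The shift of Spns3 lost its call without wild type day 0 replicate 1 (1.01, adjusted p = 0.0646). The difference shifted by −4.63 for Trpm5, −4.32 for Vstm2a, −4.08 for Gabra3, −4.06 for Tmem26, −3.91 for Hoxa9 and −3.50 for Siglec1. Slc6a11, Gabra3, Hoxa9 and Siglec1 were below the count filter of the day 0 fit, so their shifts rest on few counts there.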

How the results depend on the processing

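All 443 values of the counts of called genes kept their size within 1.5 times under the alternatives. Leaving out 1 library moved the genes called at day 10 among those with little shared sequence between 5276 and 7055, and the other alternatives between 5853 and 6420, against 6271. With a replicate block 6196 were called, and 10202 of all genes tested, against 10377. Same-numbered libraries did not deviate together (correlations of −0.083, 0.005 and −0.015), so the numbers are not taken as pairs. Of 2016 values for 144 named genes at day 10, 1977 kept their direction and call, 37 lost the call, 2 gained it and none turned. Of 1204 list counts 51 moved by over 1.5 times, all from main counts of 6 or fewer. The share of upward shifts from day 0 to day 10 depended on scaling, as given above; the cause was not tested.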
